A study of Mus musculus with 18 samples.

Results

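Cytosolic ribosomal proteins form the protein part of the ribosome, the particle that translates messenger RNA. Members were taken as genes whose single annotated symbol is that of a protein of the large (Rpl, Rplp) or small (Rps, Rpsa) subunit, S6 kinases excepted, with a value on at least 12 of 18 arrays. Of 74 such genes on the arrays 73 were kept, 47 of the large and 26 of the small subunit, read by 167 probes, among 8163 features (5511 genes and 2652 probes with no single gene name). The gene left out was Rpl39l. The members include 4 under the name of a pseudogene or paralogue, Rpl17-ps5, Rpl22l1, Rpl7l1 and Rps27l.

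Each ribosome holds 1 copy of nearly every one of these proteins, and cells make them in matched amounts. In vertebrates their mRNAs usually begin with a cytosine followed by a run of pyrimidines, the 5′ terminal oligopyrimidine (TOP) tract, through which the mTORC1 kinase and Larp1 set their translation. Low oxygen is known to lower mTORC1 activity, and growing organs such as the postnatal kidney need many new ribosomes. Steady-state mRNA, which was measured here, does not show that translational step.

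The kidneys were those of CD1 mice, an outbred stock, and all exposures began on postnatal day 2. Pups were kept for 1, 2 or 4 weeks in constant hypoxia (11% oxygen), in intermittent hypoxia (alternating between 21% and 11% oxygen at 4 min intervals) or in normoxia (room air), which gives 9 groups of 2 arrays each. Arrays are named here by regime (C, I, N), weeks and letter, so that C4A is the first array of 4 weeks of constant hypoxia. Every array set kidney cDNA of an animal labelled male (Cy5) against that of an animal labelled female (Cy3) of the same regime, without a dye swap. The deposited value is the log2 ratio of those channels.

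Regimes were never hybridised against each other, so a change shared by both animals of an array is invisible, and the comparisons below ask only whether the ratio within an array differed. The sources used here do not say which channel is on top, so a sign is that of the deposited value and says nothing of sex. Eif2s3y, a Y-linked gene, had both signs (11 arrays above and 7 below 0, between -2.17 and 1.64). This 1 gene thus did not bear out, on every array, the sex labels with the same channel on top throughout. Whether the labels, the channel on top or the probe lie behind this was not tested. The labels conflict on 2 arrays: those of I2A call its Cy3 animal a 1-week one, and those of C4A give 2 weeks in one treatment field. The constant hypoxia arrays were deposited on another footing, with medians of -1.17 to -0.15 against -0.03 to 0.03 in intermittent hypoxia and -0.07 to 0.09 in normoxia. Each array was therefore centred on its median, and constant hypoxia cannot be told apart from that footing. With ratios alone, no level of a kidney marker could be read.

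The starts of the members' genes were read first, because they carry the sequence by which this family is usually recognised. Promoter entries were found for 58 of the 73 members (69 starts), in RefSeq on GRCm38.p6, and searched on the gene's own strand. A cytosine at the annotated start followed by at least 4 pyrimidines stood at 13 of 69 member starts (18.8%), against 823 of all 32851 promoters (2.51%). None of 75 starts of mitochondrial ribosomal protein genes, which encode another ribosome, had it. A run of at least 8 pyrimidines within 15 bases of the start was present at 27 of 69 member starts (39.1%) and at 3943 of all 32851 promoters. The windows below hold 15 bases before the start and 15 from it, with the longest pyrimidine run in capitals. The first 4 are members with a tract at the annotated start. The next 4 are members with large mean ratios below. Rpl35 of the first 4 also has a large mean ratio below, so the sets are not divided by ratio. Where the run lies away from base 16 of the window, that says only that the annotated start is not followed by it.
Rps6 (chr4:86857353-86857382, minus strand): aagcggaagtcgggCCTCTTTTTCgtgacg
Rpl35 (chr2:39005117-39005146, minus strand): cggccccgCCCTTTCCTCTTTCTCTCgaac
Rpl15 (chr14:18270972-18271001, minus strand): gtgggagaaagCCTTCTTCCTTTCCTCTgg
Rps10 (chr17:27635230-27635259, minus strand): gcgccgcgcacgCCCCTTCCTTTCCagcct
Rpl41 (chr10:128549154-128549183, minus strand): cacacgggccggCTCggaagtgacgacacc
Rpl31 (chr1:39367836-39367865, plus strand): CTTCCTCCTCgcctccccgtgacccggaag
Rps9 (chr7:3704026-3704055, plus strand): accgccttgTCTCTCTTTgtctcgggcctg
Rpl9 (chr5:65391417-65391446, minus strand): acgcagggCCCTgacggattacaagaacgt

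The median member lay slightly below the array median on most arrays. The median of the large subunit genes was below 0 on 12 of 18 arrays and that of the small subunit genes on 13 of 18. In constant hypoxia the large subunit median averaged -0.10 ± 0.11, in intermittent hypoxia -0.09 ± 0.14 and in normoxia -0.07 ± 0.14 (SD, n = 6 arrays each). The small subunit medians averaged -0.13 ± 0.14 in constant hypoxia, -0.10 ± 0.17 in intermittent hypoxia and -0.06 ± 0.22 in normoxia (SD, n = 6 arrays each). The regimes thus overlapped widely, and their averages differed by less than the spread between the 2 arrays of a group (pooled SD 0.13 for the large and 0.19 for the small subunit).

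The subunit medians had the same sign on most arrays, but opposite signs on C4A, I4B and N2B. The large minus small difference of medians stayed between -0.13 and 0.14 over the 18 arrays, and the small subunit was the lower one on 9 of them. The lowest array was I2B, with a large subunit median of -0.34 and a small subunit median of -0.42. The highest was N2A, with a large subunit median of 0.12 and a small subunit median of 0.23. I2B and N2A are of the same duration, and their partners I2A and N2B lay nearer 0, with large subunit medians of -0.04 and 0.02 and small subunit medians of -0.09 and -0.12. The mitochondrial ribosomal protein genes had medians of 0.06 ± 0.11 in constant hypoxia, 0.00 ± 0.07 in intermittent hypoxia and 0.00 ± 0.08 in normoxia (SD, n = 6 arrays each).

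**Figure D1:**
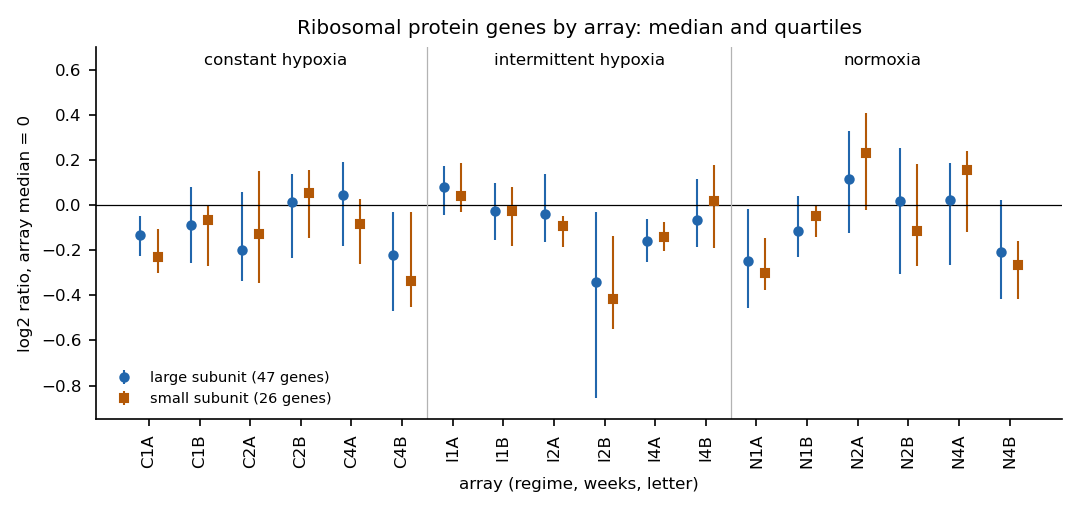
Median log2 ratio (points) and quartiles (bars) of the large and the small subunit genes on each array, relative to the median of all features on that array, which is 0. The subunits largely follow each other, I2B is the lowest array, and the arrays of the 3 regimes overlap.

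By duration the signs were not steady. In constant hypoxia the members' medians were -0.16 and -0.08 at 1 week (C1A and C1B), -0.18 and 0.03 at 2 weeks (C2A and C2B), and -0.00 and -0.25 at 4 weeks (C4A and C4B). In intermittent hypoxia they were 0.06 and -0.03 at 1 week, -0.07 and -0.39 at 2 weeks, and -0.15 and -0.03 at 4 weeks (A before B). In normoxia they were -0.26 and -0.07 at 1 week, 0.15 and -0.04 at 2 weeks, and 0.06 and -0.23 at 4 weeks (A before B). The arrays of a pair often lay as far apart as arrays of different durations.

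A feature of the deposited tables touches these genes in particular. On C1A, C1B and C4A only 89.0%, 69.9% and 67.1% of the members had a value, against 98.3%, 98.5% and 96.0% of all genes kept. On the other 15 arrays at least 98.6% of the members had one, including the arrays with the fewest values in all, I2B (71.4% of all genes) and N2B (71.5%). The mitochondrial ribosomal protein genes did not share the gaps, with values for 97.6%, 100% and 100% of them on C1A, C1B and C4A. For 5 members at least 1 constant hypoxia group had no value, so they entered no constant hypoxia mean, and for others a group mean rests on 1 array. Where a gene is read by several probes, the probes behind its value can differ between arrays. The reason for blank spots is not stated in the labels.

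**Figure D2:**
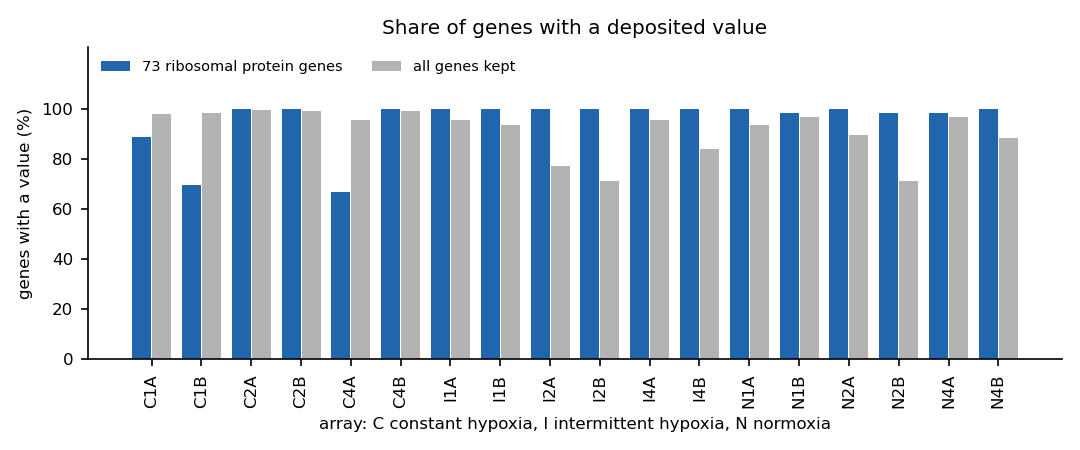
Share of the 73 ribosomal protein genes and of all 5511 genes kept that had a deposited value on each array. Only on C1A, C1B and C4A is the share lower for the ribosomal protein genes.

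Within an array the members lay closer together than other features. Their interquartile range was narrower than that of all features on 18 of 18 arrays and their SD was lower on 17 of 18. Of the 73 members 49 averaged several probes, whereas 2652 of the features were single probes without a gene name. How far averaging over probes accounts for the narrower spread, or for the correlations below, was not tested. The members also varied together over arrays. The median correlation between 2 members was 0.21 (2628 pairs, up to 18 arrays), being 0.18 between large subunit genes, 0.27 between small subunit genes and 0.22 across subunits. For all pairs of genes it was 0.00, and for pairs of mitochondrial ribosomal protein genes -0.00. With group means removed it was 0.22. These correlations share arrays, label and centring, and are given as a description.

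Rps21, of the mRNA exit region of the small subunit, followed the median of the other members most closely (r = 0.84, 18 arrays). Next came Rpl37 (0.81, 17 arrays), Rpl35a (0.80, 18 arrays) and Rpl38 (0.79, 18 arrays), small proteins of the large subunit. At the other end were Rplp0 (-0.42, 18 arrays), the scaffold of the stalk, the paralogue Rpl7l1 (-0.36, 18 arrays), Rpl29 (-0.32, 17 arrays) and Rpl27a (-0.20, 17 arrays). Probes of one member correlated with a median of 0.35 (45 members), against 0.11 over 1122 genes with several probes. Ribosomal protein genes have many near-identical processed copies in the genome, so a spotted cDNA may also read such copies.

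**Figure D3:**
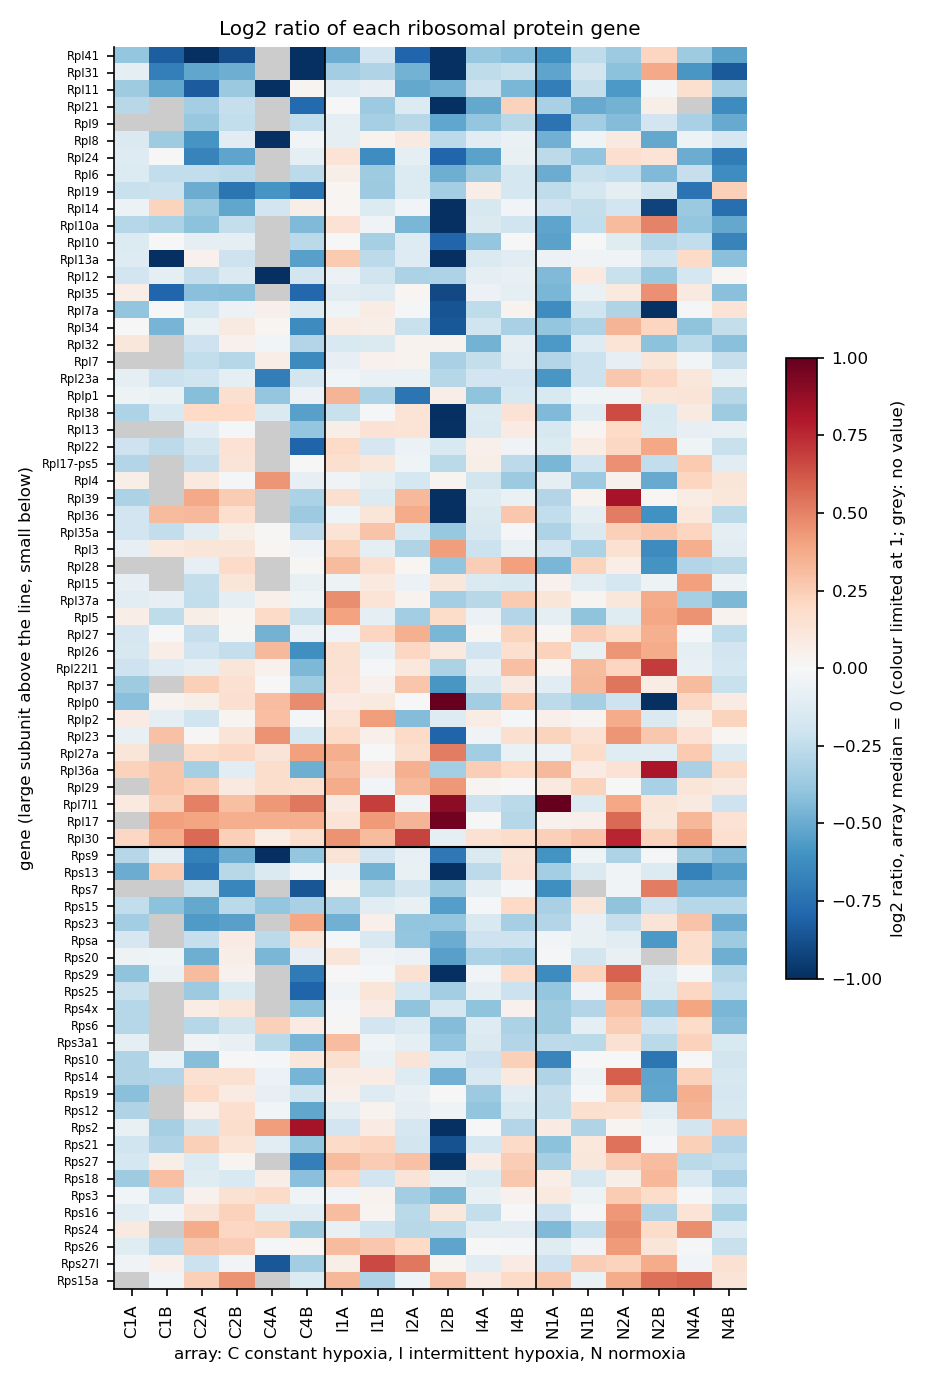
Log2 ratio of each of the 73 members (rows, large subunit above the line and small below, each sorted by mean) on each array (columns). Colours stop at -1 and 1, and grey means no value. Rpl41 and Rpl31 are below 0 nearly throughout, Rpl30 and Rpl17 above it, and I2B is the darkest column.

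No member passed for a difference between regimes at an adjusted p of 0.05 (limma, Benjamini-Hochberg over all features, two-sided). For constant hypoxia minus normoxia, over all durations, 0 of 68 testable members passed, as did 0% of 7153 features. The large subunit genes had a median difference of -0.08 (29 of 43 negative) and the small subunit genes of -0.08 (19 of 25 negative). Over all features the median was -0.03, with 55.5% negative. At an unadjusted p of 0.05 there were 5 members (7.35% of 68), against 8.26% of all features. The median SE of a member's difference was 0.17.

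For intermittent hypoxia minus normoxia 0 of 73 members passed, beside 0% of 6281 features. The large subunit median was -0.04 (27 of 47 negative) and the small subunit median -0.05 (16 of 26 negative), against 0.01 with 47.7% negative over all features. Only 1 member (1.37%) had an unadjusted p under 0.05, compared with 4.71% of features. For intermittent minus constant hypoxia 0 of 68 members passed, beside 0% of 6593 features. There the medians were 0.04 and 0.03 (20 of 43 large and 11 of 25 small subunit genes negative), against 0.05 with 41.8% negative over all features, and 5 members (7.35%) had an unadjusted p under 0.05, compared with 12.4% of features. No member had arrays that failed to overlap between any of these regimes, whereas 0.637% of features did for constant hypoxia and normoxia, 0.817% for intermittent hypoxia and normoxia, and 1.74% for intermittent and constant hypoxia.

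The members nearest to a difference stand on several roles. Rpl41, the smallest ribosomal protein, sits between the subunits. Its ratio lay between -1.19 and -0.39 (median -0.89) on 5 constant hypoxia arrays, between -1.21 and -0.19 (median -0.45) on 6 intermittent hypoxia arrays, and between -0.61 and 0.22 (median -0.36) on 6 normoxia arrays. Constant hypoxia was the lowest regime, yet its arrays overlapped those of the others. Constant hypoxia minus normoxia came to -0.62 ± 0.17 (SE, limma adjusted p = 0.506). The probes behind it differed between regimes: one of its 2 probes had no value on any constant hypoxia array and averaged -0.32 in intermittent hypoxia and 0.01 in normoxia, whereas the other averaged -0.91 in constant hypoxia, -0.86 in intermittent hypoxia and -0.67 in normoxia (here relative to the median of all probes). On that 1 probe the difference was -0.29 (adjusted p = 0.774).

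Rpl22, which in mice holds down its own paralogue Rpl22l1, had a ratio between -0.80 and 0.14 (median -0.21) on 5 constant hypoxia arrays and between -0.22 and 0.39 (median 0.01) on 6 normoxia arrays. The difference was -0.40 ± 0.13 (SE, limma adjusted p = 0.553), from 1 probe, and the lowest array was C4B. Intermittent minus constant hypoxia was 0.33 ± 0.13 for it (adjusted p = 0.376). Rps27l, a p53-induced paralogue of Rps27, gave 0.45 ± 0.16 for intermittent minus constant hypoxia (SE, limma adjusted p = 0.325). Its arrays ran from -0.11 to 0.66 in intermittent hypoxia and from -0.85 to 0.05 in constant hypoxia, C4A being the lowest. After removal of a running median over neighbouring probe numbers the difference was -0.10 (adjusted p = 0.865). Without C4B, where C4A with its conflicting labels stands alone for its group, the difference was 0.53.

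Rplp0 anchors the P1 and P2 proteins of the stalk, which draws translation factors to the ribosome. Its ratio lay between -0.41 and 0.47 (median 0.11) in constant hypoxia, between -0.34 and 1.59 (median 0.09) in intermittent hypoxia and between -1.08 and 0.21 (median -0.23) in normoxia (6 arrays each). The difference from normoxia was 0.37 ± 0.24 for constant hypoxia (adjusted p = 0.660) and 0.55 ± 0.24 for intermittent hypoxia (SE, limma adjusted p = 0.992). Both ends of that range were 2-week arrays, I2B at 1.59 and N2B at -1.08. Rplp1 and Rplp2, the other stalk proteins, differed from normoxia by -0.09 and -0.08 in constant hypoxia and by -0.16 and -0.09 in intermittent hypoxia (SE 0.18 and 0.13).

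Other members of the large subunit did not pass either. Rpl14 gave 0.30 ± 0.19 for constant hypoxia minus normoxia (SE, adjusted p = 0.659) and Rpl28 gave 0.35 ± 0.17 for intermittent hypoxia minus normoxia (SE, adjusted p = 0.992). Rpl3 and Rpl10, near the peptidyl transferase centre, differed from normoxia by 0.16 and 0.17 in constant hypoxia and by 0.12 and 0.03 in intermittent hypoxia. Rpl5 and Rpl11 carry the 5S rRNA and bind Mdm2 when ribosome assembly is disturbed. Rpl5 differed from normoxia by -0.07 in constant and -0.08 in intermittent hypoxia, and Rpl11 by -0.42 and -0.03 (SE 0.16 for Rpl5 and 0.28 for Rpl11). Rpl13a, known in human cells for silencing inflammatory mRNAs, differed by -0.33 in constant and -0.14 in intermittent hypoxia (SE 0.23 and 0.21).

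In the small subunit, Rps2 lines the mRNA entry. Its intermittent minus constant hypoxia difference was -0.46 ± 0.19 (SE, limma adjusted p = 0.376), with arrays from -1.33 to 0.08 in intermittent hypoxia and from -0.34 to 0.83 in constant hypoxia. Rps24, mutated in some patients with Diamond-Blackfan anaemia, gave -0.28 ± 0.16 for the same comparison (SE, adjusted p = 0.463). Rps3, at the mRNA entry, differed from normoxia by -0.03 in constant and -0.19 in intermittent hypoxia (SE 0.11). Rps6, the S6 kinase substrate downstream of mTORC1, differed by -0.01 and -0.09 (SE 0.16 and 0.15), Rps19 by -0.08 and -0.05 (SE 0.17 and 0.15) and Rpsa by 0.06 and -0.08 (SE 0.16 and 0.14), each pair being constant and then intermittent hypoxia minus normoxia.

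Within single durations no member passed either. At 1 week 0 of 68 members passed for constant hypoxia minus normoxia (0.0251% of features) and 0 of 73 for intermittent hypoxia minus normoxia (0% of features), with no member under an unadjusted p of 0.05 in either (4.21% and 4% of features). At 4 weeks 0 of 73 passed for constant hypoxia (0.0125% of features passed, and 6 members had an unadjusted p under 0.05, against 7.08% of features) and 0 of 73 for intermittent hypoxia (0% of features passed, and no member had an unadjusted p under 0.05, against 9.11% of features). For constant hypoxia minus normoxia the large subunit median was 0.03 at 1 week, -0.11 at 2 weeks and -0.13 at 4 weeks, and the small subunit median -0.03, -0.08 and -0.23. At 2 weeks 0 of 73 members passed for constant hypoxia, beside 0.0403% of features (0.0269% positive, 0.0134% negative), and 6 had an unadjusted p under 0.05, against 9.95% of features.

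Intermittent hypoxia minus normoxia had opposite signs at 1 and 2 weeks, a contrast between durations that was not itself tested. At 1 week 61 of 73 members were positive and 12 negative (50% of features were negative), with medians of 0.17 for the large and 0.20 for the small subunit, against -0.00 over all features. At 2 weeks 58 of 73 were negative (79.5%, against 49.7% of features), with medians of -0.26 and -0.33 against 0.00. At 4 weeks 38 of 73 were negative (48.4% of features) and the medians were 0.03 and -0.07. No member passed at 2 weeks (0.182% of features passed, 0.167% positive and 0.0152% negative), although 15 members (20.5%) had an unadjusted p under 0.05, against 13.5% of features.

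The 2-week shift rested on few arrays. Rpl10a, of the other stalk of the large subunit, where the empty tRNA leaves, had the smallest adjusted p of any member there (0.0594), with -0.46 and -1.12 on I2A and I2B against 0.32 and 0.49 on N2A and N2B. The difference was -1.20 ± 0.24 (SE, limma). Without C4A and I2B, the arrays with the widest spread (an alternative chosen after seeing the data), the medians at 2 weeks were -0.028 for the large and -0.093 for the small subunit. Without I2A instead, with I2B alone standing for the group, 14 of 73 members passed (19.2%), as did 742 of 5328 features (13.9%). The elongation factor and TOP-type genes outside the family had a median of 0.28 in the same comparison (11 of 15 positive) and ribosome biogenesis factors 0.23 (33 of 48 positive), and none of them passed. Erythroid markers were all negative there (6 of 6, median -0.13), and their part in these values was not tested.

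**Figure D4:**
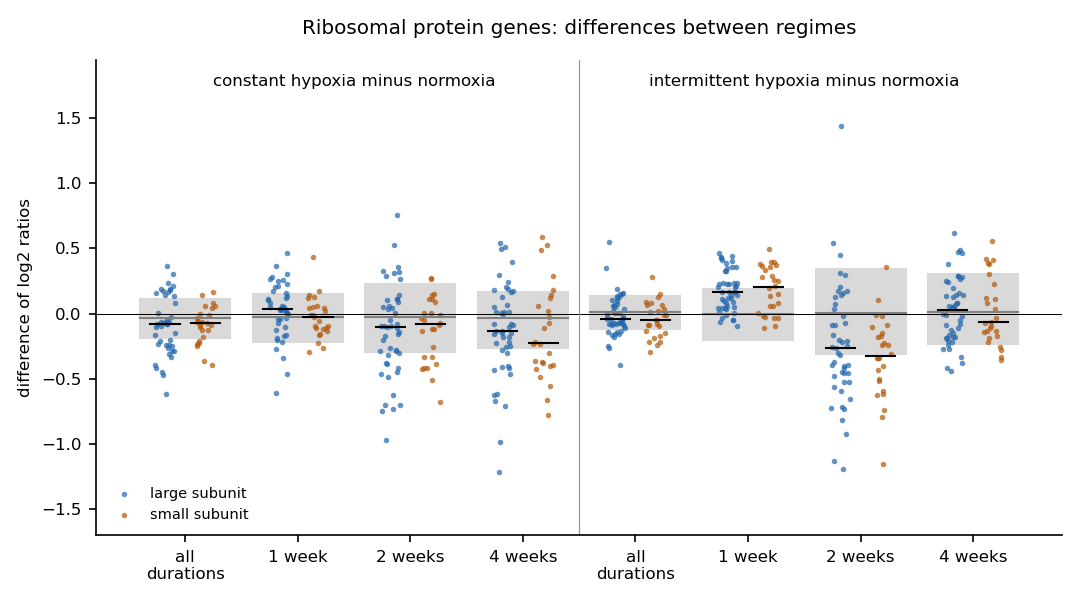
Difference of log2 ratios for each member (points), with subunit medians (black lines), for constant and intermittent hypoxia minus normoxia over all durations and at 1, 2 and 4 weeks. Grey boxes span the quartiles of all features. Intermittent hypoxia lies above 0 at 1 week and below 0 at 2 weeks.

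Change with age was no clearer. All exposures began on the same postnatal day, so in both hypoxia regimes age cannot be told apart from length of exposure. For 4 weeks minus 1 week, 0 of 68 members passed in constant hypoxia, 0 of 73 in intermittent hypoxia and 0 of 73 in normoxia (limma), beside 0% of features in each, and 3, 0 and 0 members had an unadjusted p under 0.05, against 9.59%, 3.71% and 9.63% of features. The large subunit medians were -0.10 in constant hypoxia, -0.12 in intermittent hypoxia and 0.01 in normoxia, and the small subunit medians -0.03, -0.11 and 0.09. Among the members with the smallest p, constant hypoxia gave 0.83 ± 0.33 for Rps2 (SE, limma adjusted p = 0.471), 0.73 ± 0.40 for Rps23 of the decoding site, from groups of 1 array each, -0.61 ± 0.27 for Rps27l and -0.57 ± 0.26 for Rpl22. The value of Rps27l was 0.56 after removal of a running median over neighbouring probe numbers (adjusted p = 0.932). Intermittent hypoxia gave 0.30 for Rps15, 0.21 for Rps13, -0.63 for Rpl7l1 and -0.43 for Rpl17. Normoxia gave 0.51 for Rps24, 0.42 for Rpl23a, -0.47 for Rpl37a and -0.50 for Rpl7l1. None of these values passed. No member passed for a difference between regimes in the change over age: 0 of 68 passed for constant hypoxia and 0 of 73 for intermittent hypoxia against normoxia (0% of features in both), with 1 and 0 members at an unadjusted p under 0.05, against 4.05% and 9.18% of features.

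The remaining question is whether the ratio within an array was away from the array median in each regime. In constant hypoxia 10 of 68 members passed against 0, 1 positive and 9 negative, beside 15.2% of 8027 features (4.07% positive, 11.1% negative). In intermittent hypoxia 2 of 73 passed, both negative, beside 7.18% of features (4.97% positive, 2.22% negative). In normoxia 2 of 73 passed, both negative, beside 3.4% (1.88% positive, 1.52% negative). These shares are near or below those of all features. In sign the members leaned to one side: 53 of 68 were negative in constant hypoxia (77.9%, against 50.5% of features), 54 of 73 in intermittent hypoxia (74.0%, against 51.6%) and 49 of 73 in normoxia (67.1%, against 50.7%). Over all arrays 58 of 73 members had a mean below 0, against 51.1% of features.

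Rpl41 had the largest negative mean of the members in constant hypoxia (-0.93 ± 0.13, SE, limma adjusted p = 0.00362) and also passed in intermittent hypoxia (-0.58 ± 0.11, adjusted p = 0.0134). After removal of a running median over neighbouring probe numbers its constant hypoxia mean was -0.42 (adjusted p = 0.0200), and with only the constant hypoxia arrays in the fit the adjusted p was 0.0597. Its arrays were below 0 on 16 of 17, N2B being the exception at 0.22. Rpl31, at the rim of the peptide exit tunnel, had -0.67 ± 0.14 in constant hypoxia (adjusted p = 0.0129) and -0.44 ± 0.12 in intermittent hypoxia (adjusted p = 0.0465). It too was positive only on N2B (0.38), and its 3 probes were each negative on average in every regime. Without I2B the intermittent hypoxia mean of Rpl31 was -0.35 (adjusted p = 0.171).

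Rpl19, another protein of the tunnel rim and read by 1 probe, lay between -0.73 and -0.21 on all 6 constant hypoxia arrays, between -0.36 and 0.07 in intermittent hypoxia and between -0.74 and 0.24 in normoxia. Its mean in constant hypoxia was -0.49 ± 0.11 (SE, limma adjusted p = 0.0151). Rps9, at the mRNA entry, lay between -1.18 and -0.10 in constant hypoxia, where its mean was -0.52 ± 0.12 (SE, adjusted p = 0.0165). Rps15, near the decoding site, lay between -0.51 and -0.25 in constant hypoxia, with a mean of -0.36 ± 0.09 (SE, adjusted p = 0.0248). For each of these the constant hypoxia arrays were all negative and still overlapped those of the other regimes. Without C4A the mean was -0.39 for Rps9 (adjusted p = 0.0732) and -0.35 for Rps15 (adjusted p = 0.0784). After removal of a running median over neighbouring probe numbers, the mean was -0.18 for Rps9 (adjusted p = 0.259) and -0.20 for Rps15 (adjusted p = 0.144). The share of all features passing also varied with the array left out, so the losses that follow cannot be read as particular to the members. Without C1B, C2A or C2B only Rpl41 passed in constant hypoxia, and without I1A no member passed in intermittent hypoxia.

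Rpl11 passed in constant hypoxia with -0.71 ± 0.20 (SE, limma adjusted p = 0.0315), but C4A alone was at -2.19, and without C4A the mean was -0.34 (adjusted p = 0.112). The same array held Rpl8 at -2.64, Rpl12 at -1.22 and Rps9 at -1.18. Probes of these genes had unlike means over constant hypoxia (here relative to the median of all probes). They were -0.87 and 0.08 for Rpl8, and -0.71, -0.16 and -0.04 for Rpl12. For Rps9 they were -0.67 and -0.40, and for Rpl11 -0.93 and -0.68. In each gene the most negative mean was that of the probe with the highest number. Whether probe position lies behind this was not tested. When a running median over neighbouring probe numbers was taken from each array, the Rpl11 mean became -0.08 (adjusted p = 0.644). Rpl22 (-0.35), Rpl35 (-0.52) and Rpl10a (-0.36) also passed in constant hypoxia, with adjusted p of 0.0350, 0.0409 and 0.0480. Each had a value on 5 constant hypoxia arrays. The probes of Rpl35 averaged -0.71, -0.51 and -0.09 there and those of Rpl10a -0.61 and -0.12, again relative to the median of all probes.

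The positive side was smaller. Rpl17, at the exit tunnel, had 0.36 to 0.41 on 5 constant hypoxia arrays, the narrowest range of any member there, against -0.29 to 0.97 in intermittent hypoxia and 0.05 to 0.57 in normoxia. Its constant hypoxia mean was 0.39 ± 0.12 (SE, limma adjusted p = 0.0426), and without C4A it was 0.39 with an adjusted p of 0.0998. Rpl30, which in yeast regulates the splicing of its own transcript, was positive on 17 of 18 arrays, with means of 0.27 in constant hypoxia, 0.28 in intermittent hypoxia and 0.35 in normoxia (SE 0.11 each, adjusted p = 0.0948, 0.117 and 0.0790).

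In normoxia Rpl9, at the base of the stalk and read by 1 probe, ran from -0.73 to -0.19 with a mean of -0.42 ± 0.09 (SE, limma adjusted p = 0.0317). It was the only member with 1 sign on every array, below 0 on all 15 where it had a value. Rpl6 of the large subunit ran from -0.62 to -0.22 with a mean of -0.38 ± 0.10 (SE, adjusted p = 0.0493). It was below 0 on 16 of 17 arrays, I1A excepted at 0.06. Its call in normoxia was lost in 21 of 30 alternative settings (adjusted p up to 0.190, without N1A), and that of Rpl9 in 8 of 28 (up to 0.142, without N1A). Rps15a had the next positive normoxia mean after Rpl30 (0.31 ± 0.11, SE, adjusted p = 0.132).

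**Figure D5:**
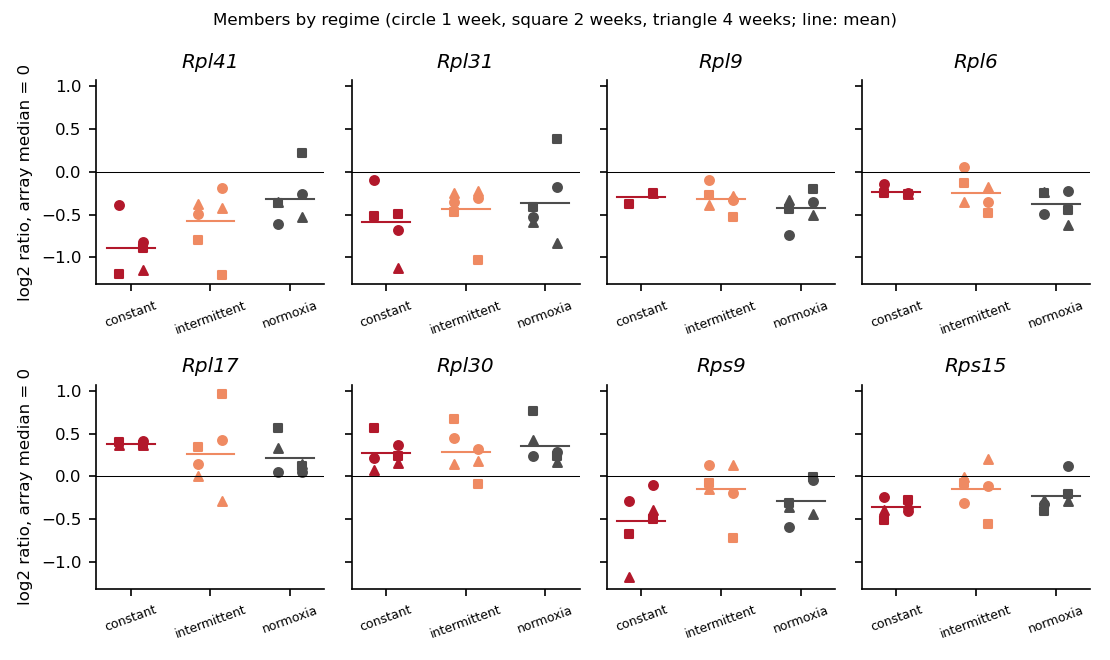
Log2 ratio of 8 members on each array by regime, with the mean of each regime as a line. Circles are 1 week, squares 2 weeks and triangles 4 weeks. Rpl41, Rpl31, Rpl9 and Rpl6 lie mostly below 0, Rpl30 mostly above, and the regimes overlap for all 8.

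Grouped by place in the ribosome, no member passed between regimes, as above. Of 10 measured proteins of the peptide exit tunnel and its rim, 8 were negative for constant hypoxia minus normoxia (median -0.24, against -0.03 over all features) and 8 for intermittent hypoxia minus normoxia (median -0.07, against 0.01). Of all features 55.5% and 47.7% were negative in these comparisons, and of all members 70.6% and 58.9%. In the mean of constant hypoxia 1 of them passed as positive (Rpl17) and 4 as negative (Rpl19, Rpl22, Rpl31, Rpl35), where 4.07% of features passed as positive and 11.1% as negative. Among all 68 members tested there, these included, 1 passed as positive and 9 as negative. The groupings were chosen with earlier results of these data known, so these counts are description only. The 4 proteins near the peptidyl transferase centre had medians of 0.16 in constant and 0.12 in intermittent hypoxia relative to normoxia, and the 4 stalk proteins -0.09 and -0.04. Of 14 measured genes linked to Diamond-Blackfan anaemia, a red cell aplasia caused by ribosomal protein mutations, 11 of 13 testable were negative for constant hypoxia minus normoxia (median -0.15) and 10 of 14 for intermittent hypoxia minus normoxia (median -0.05).

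The wider translation machinery, from lists drawn up with the members, held no gene that passed between regimes either. Among 58 measured ribosome biogenesis factors 0 passed for constant hypoxia minus normoxia (26 of 51 positive, median 0.00) and 0 for intermittent hypoxia minus normoxia (27 of 47 positive, median 0.04). In the mean of constant hypoxia 6 of the 58 passed as positive and 8 as negative, where 4.07% of features passed as positive and 11.1% as negative. Among 16 elongation factors and other TOP-type mRNAs 0 passed in either comparison (medians 0.16 and 0.02). Eef1a1, the main elongation factor, was below 0 in intermittent hypoxia (-0.35 ± 0.09, SE, limma adjusted p = 0.0314) and in normoxia (-0.36 ± 0.09, adjusted p = 0.0386). Eif3f of the same list, a subunit of an initiation factor, was above 0 in both (0.49 ± 0.12 in intermittent hypoxia, adjusted p = 0.0314, and 0.46 ± 0.10 in normoxia, adjusted p = 0.0380). No other gene of the list passed there, where 4.97% and 1.88% of features passed as positive and 2.22% and 1.52% as negative. The constant hypoxia mean also had 1 gene of the list passing as positive and 1 as negative, beside the shares of features given above for that mean. Of 34 genes of the mTORC1 and S6 kinase axis only 12 were measured, and none passed between regimes. Of 17 erythroid markers 6 were measured, with an array mean of -1.09 to 0.12 in constant hypoxia, -0.59 to 0.23 in intermittent hypoxia and -0.36 to 0.29 in normoxia. Whether blood in the tissue contributes to the members' ratios was not tested.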

How the data were processed

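Kidney RNA of 18 arrays was measured with 2 dyes per array. Per the labels' protocols, 60 ug of Trizol-extracted RNA per channel was labelled directly with Cy5 or Cy3. The authors deposited log2 ratios for 16128 probes. Base 2 was read from the values, since 2 raised to them gave ratios of whole numbers (denominators up to 600, relative tolerance 3e-09) for 25.3% to 77.7% of the 300 values sampled on each array. Bases e and 10 did so for 1.67% at most. The labels state neither how spots were filtered and normalized nor which dye is on top, and hold no intensities, so the number of arrays limits the precision.

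Of the probes 9604 had 1 gene symbol, 213 several and 6311 none. Each gene took the mean of its probes that had a value, features with at least 12 values kept, and each array centred on its median over them. The model was fitted in R 4.3.3 with limma 3.58.1 (9 group means, all 18 arrays, eBayes, prior degrees of freedom 5.37). P values are two-sided and Benjamini-Hochberg adjusted over every feature with an estimate, with a threshold of 0.05. The fit was tested on simulated data. Figures and motif counts used Python 3.11.15.

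The members, gene lists and tests were chosen with earlier results of these data known. Named members were those passing a comparison (up to 6 by smallest p in each direction), the 2 with the smallest p in each direction of the main comparisons, and a set list (the stalk proteins, Rpl3, Rpl5, Rpl10, Rpl11, Rpl13a, Rpl22, Rpsa, Rps3, Rps6, Rps19 and Fau). Others were named after their values were seen: Rpl8, Rpl12, Rpl10a, Rpl35 and those picked for likeness, sequence or a paralogue. Arrays were grouped by title. Per the labels the arrays of a group carry different animals. The letters A and B did not pair arrays across groups: deviations of the A arrays of 2 groups correlated between -0.30 and 0.43. Alternatives covered centring, filters, probe choice, a trend along probe numbers, the test, a replicate block and the arrays left out.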

Additional observations from a re-analysis of the deposited data

Results flagged for a closer look

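Named members and subunit medians were screened for arrays that stood apart within a regime. Of 103 sets of arrays tested, 6 had 1 array farther from its neighbours than Dixon's 95% limit allows, and chance gives about 1 in 20. In intermittent hypoxia 4 of them came from I2B, the array with the lowest members' median. There Rplp0, the stalk scaffold, was at 1.59 with its nearest array at 0.26. On the same array Rpl14 was at -1.24 (nearest -0.16), Rps2 at -1.33 (nearest -0.30) and Rpl31 at -1.03 (nearest -0.47). In constant hypoxia Rpl23a, a protein of the tunnel rim, was at -0.689 on C4A (nearest -0.22), and Rpl6 at -0.137 on C1A (nearest -0.25, 5 arrays). Rpl6 was thus the least negative there rather than the most. No member had a change over age that differed between regimes at the threshold, and none had arrays of opposite sign throughout 2 regimes. The cause of these values was not tested.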

How the results depend on the processing

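Most values kept their direction and their side of the threshold. As deposited, without centring, the footing of the constant hypoxia arrays entered every comparison with them: 67 members passed for constant hypoxia minus normoxia (medians -0.88 for the large and -0.87 for the small subunit), 65 for intermittent minus constant hypoxia (0.79 and 0.79), 57 at 1 week (-0.96 and -1.03), none at 2 weeks (-0.38 and -0.35) and 64 at 4 weeks (-1.22 and -1.34) for constant hypoxia minus normoxia, and 68 in the constant hypoxia mean (-0.91 and -0.93). Of all features 97%, 94.3%, 80.3%, 0.0134%, 89.7% and 99% passed there, in the same order. Of the other means 1 member passed in intermittent hypoxia (5.19% of features) and 1 in normoxia (2.57%), and the large subunit median was 0.16 for 4 weeks minus 1 week in normoxia and -0.26 for the difference of that change in intermittent hypoxia. Signs turned there for 9 named values: Rpl14 (-0.50), Rplp0 (-0.43), Rpl3 (-0.64), Rpl10 (-0.60) and Rpsa (-0.73) in constant hypoxia minus normoxia, Rps24 (0.49) and Rps2 (0.32) in intermittent minus constant hypoxia, and Rpl17 (-0.41) and Rpl30 (-0.52) in the constant hypoxia mean.

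The counts for mean ratios (10, 2 and 2 in constant hypoxia, intermittent hypoxia and normoxia) were the least steady. They were 0, 1 and 0 with only the arrays compared in the fit, 5, 7 and 5 after a running median of probe numbers (with 2 members, Rpl10a and Rplp0, passing for intermittent hypoxia minus normoxia at 2 weeks), 4, 0 and 0 with values on all 18 arrays, 11, 1 and 0 with at least 15 values and every group, 12, 3 and 1 with 1 probe per gene, 6, 2 and 1 with an unmoderated test, and 7, 1 and 0 with the array letter as a replicate block (6 of those 7 being among the 10), which moved no other count of members. Of features 5.92%, 14.9% and 8.72% passed after the running median, and 12.7%, 1.07% and 0.163% with the block. For the other settings named so far no share of features is given, so their counts cannot be read as particular to the members. Without I2A and C4A, whose labels conflict, they were 7, 19 and 5 (9.01%, 27% and 11.6% of features), with 18 of 73 members (24.7%) for intermittent hypoxia minus normoxia at 2 weeks, against 17.1% of features (large subunit median -0.45). Without C4A and I2B, an alternative chosen after seeing the data, the 2-week medians of intermittent hypoxia minus normoxia were -0.028 for the large and -0.093 for the small subunit. Values on all 18 arrays gave small subunit medians at 4 weeks of 0.024 for constant and 0.13 for intermittent hypoxia minus normoxia.

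Leaving out 1 array at a time, 1 to 10 members passed in the constant hypoxia mean (0.151% to 24.1% of features), 0 to 17 in the intermittent hypoxia mean (1.13% to 20.2%) and 0 to 4 in the normoxia mean (0.332% to 7.72%). The 17 members, without I2A, were 23.3% of 73. Rpl41 alone passed in constant hypoxia without C1B, C2A or C2B. For intermittent hypoxia minus normoxia at 2 weeks 0 to 14 passed (14 without I2A, 19.2% of members against 13.9% of features), with large subunit medians of -0.45 to -0.029 and small subunit medians of -0.47 to -0.093 (nearest 0 without I2B). Without C4B up to 2 members (Rpl8, Rpl11) passed for constant hypoxia minus normoxia and for its change with age (0 to 2 each), and 0 to 3 for intermittent minus constant hypoxia, for constant hypoxia minus normoxia at 4 weeks and for 4 weeks minus 1 week in constant hypoxia. Of features 8.95%, 7.99%, 11.6%, 11.6% and 13.2% passed in these 5 without C4B. The large subunit medians ran from -0.22 to 0.064 at 2 weeks and from -0.19 to 0.069 at 4 weeks for constant hypoxia minus normoxia, from -0.073 to 0.15 for 4 weeks minus 1 week in normoxia, and from -0.24 to -0.043 for the difference of that change in constant and -0.28 to -0.020 in intermittent hypoxia. The small subunit medians ran from -0.42 to 0.050 at 4 weeks for constant and from -0.25 to 0.20 for intermittent hypoxia minus normoxia, from -0.13 to 0.27 for the change in normoxia and from -0.35 to 0.14 for its difference in constant hypoxia. A lone array in a group was assumed to vary like the others, and the cause of these shifts was not tested.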

Other observations

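Some members have a paralogue on the arrays. Rpl7, which had no value on C1A and C1B, averaged -0.27 ± 0.29 over the 2-week and 4-week arrays of constant hypoxia (SD, n = 4), -0.11 ± 0.15 in intermittent hypoxia and -0.12 ± 0.16 in normoxia (SD, n = 6 each). Rpl7l1, its paralogue, averaged 0.35 ± 0.17 in constant hypoxia, 0.19 ± 0.49 in intermittent hypoxia and 0.21 ± 0.45 in normoxia (SD, n = 6 each), and all 6 constant hypoxia arrays were positive, from 0.10 to 0.53. Rpl22l1 averaged -0.12 in constant hypoxia, 0.03 in intermittent hypoxia and 0.17 in normoxia, the order of regimes also seen for Rpl22 (-0.26, -0.03 and 0.04). Its difference of constant hypoxia from normoxia was -0.29 ± 0.15 (SE, limma adjusted p = 0.604). Whether the probes separate the paralogues was not tested.

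Members with a pyrimidine run of at least 8 near an annotated start (26) had a median mean ratio of -0.05, and members with a promoter entry and no such run (32) of -0.10. By regime the medians were -0.12 and -0.13 in constant hypoxia, -0.13 and -0.13 in intermittent hypoxia, and -0.04 and -0.08 in normoxia, with the run named first. Fau, a small subunit protein made as a fusion with a ubiquitin-like protein and outside the naming rule, had a mean of -0.27 in constant hypoxia, -0.06 in intermittent hypoxia and -0.13 in normoxia, and passed in none.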
